A study of Homo sapiens with 12 samples.

Results

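Collagens, laminins and integrins form the matrix that surrounds cells and the receptors that hold it. The genes described here were taken by name, as every symbol of a collagen chain (COL, number, A, number), a laminin chain (LAMA, LAMB or LAMC and a digit) or an integrin (ITGA or ITGB), kept where its normalized counts averaged 10 or more over all 12 libraries. The pattern matched 86 of 36601 genes, and 50 of them reached that mean. These were 20 of 44 collagen genes, 9 of 12 laminin genes and 21 of 30 integrin names. The remaining 36 stayed under the mean, and 3 of those (COL25A1, COL15A1 and ITGA8) had no read pair in any library. The rule used symbols and the mean over all treatments, not any comparison between them.

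A collagen molecule is a triple helix of 3 chains. Fibrillar collagens build fibers, type IV collagens build the sheet of the basement membrane, and the FACIT collagens sit on the surface of fibers. A laminin is a cross-shaped trimer of an alpha, a beta and a gamma chain and is the other main component of the basement membrane. An integrin is a pair of an alpha and a beta subunit in the plasma membrane that binds these proteins outside the cell and the actin or keratin skeleton inside it. In pancreatic ductal carcinoma the matrix is abundant, and much of it is known to come from fibroblasts.

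KP4 is a human pancreatic ductal carcinoma cell line, grown here in DMEM with 10% fetal bovine serum. All 4 groups were wild-type KP4 cells collected after 24 h, with 3 libraries each. They received DMSO as vehicle, 10 mM metformin (Met), an inhibitor of complex I of the respiratory chain, 5 nM FK866 (FK), an inhibitor of the NAD salvage enzyme NAMPT, or 10 mM metformin with 5 nM FK866 (Met+FK). The comparisons ask what each drug did alone and what the second drug added. The labels number the libraries from 1 to 3 but do not say whether these came from separate cultures, so p-values measure the spread between these libraries, which may be technical. A single cell line was used, and in bulk RNA fewer cells that express a gene and less RNA per cell cannot be told apart.

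Between 30667735 and 41052203 read pairs per library were counted on genes. Markers of an epithelial carcinoma, the labelled origin, were present only in part. The keratins KRT18 and KRT8 had means of 13174 and 2728 normalized counts over all libraries, but EPCAM stood at 8.93, CLDN7 at 3.44 and GRHL2 at 0.166. VIM, the vimentin of mesenchymal cells, had a mean of 103576. The fibroblast genes DCN, LUM and FAP had means of 0, 0.303 and 0.233. Summed over all 14 mesenchymal or fibroblast markers, the level was 115954 to 125932 normalized counts in DMSO, 98494 to 103446 in Met, 102646 to 113163 in FK and 100317 to 108399 in Met+FK. Nearly all of it was VIM, and 3 of the 14 (TWIST1, SNAI2 and DCN) were at 0. Of the 7 tested, ZEB1 rose (0.62, adjusted p = 0.0225 in limma) and S100A4 fell (−1.19) with metformin on the log2 scale. The sum over 10 epithelial markers was 21453 to 22327 in DMSO, 12255 to 14892 in Met, 14218 to 18482 in FK and 12290 to 15323 in Met+FK. Most of that sum was KRT18. These epithelial genes did not move together, since with metformin ESRP1, a splicing factor of epithelia, rose by 2.19 (adjusted p = 0.000411 in limma) and CDH1, which codes for E-cadherin, by 1.07 (adjusted p = 0.000831), while KRT19 (−1.26) and KRT18 (−0.82) fell. The same 4 were called in the same directions in Met+FK against DMSO. Of 5 endothelial markers KDR was at 0, and their sum was low, at 60.1 to 92.1 in DMSO, 69.8 to 82.6 in FK, 27.2 to 43.6 in Met and 39.5 to 44.9 in Met+FK. The groups with metformin lay below those without it, and both tested markers, TEK (−2.01) and VWF (−0.93), fell with metformin. The part of these shifts in the results below was not tested.

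The upstream sequences of 4 of the genes are shown because they bear on chains that assemble together and are compared below. Each is the 250 bases before a RefSeq transcript start in GRCh38.p14, written 5′ to 3′ on the gene's own strand. RefSeq's table held such windows for 35 of the 50 genes. Genes not matched included COL1A1, COL3A1, COL5A2, COL6A1, COL9A3, COL14A1, COL20A1, COL22A1, ITGA3, ITGA7, ITGB2, ITGB3, ITGB4 and LAMC3. COL4A5 (plus strand, chrX:108439588-108439837) and COL4A6 (minus strand, chrX:108439459-108439708) lie head to head, with 379 bases between their starts. RefSeq lists 2 windows for COL4A6, and this distance is that of the window shown. The capitals mark the 121 bases that both windows share, so that 1 run is the reverse complement of the other.
COL4A5: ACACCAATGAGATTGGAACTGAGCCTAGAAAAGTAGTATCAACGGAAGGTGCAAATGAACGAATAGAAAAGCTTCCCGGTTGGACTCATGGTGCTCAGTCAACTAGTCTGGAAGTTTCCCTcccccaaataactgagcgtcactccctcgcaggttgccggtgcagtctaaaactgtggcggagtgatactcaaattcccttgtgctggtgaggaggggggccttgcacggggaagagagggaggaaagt
COL4A6: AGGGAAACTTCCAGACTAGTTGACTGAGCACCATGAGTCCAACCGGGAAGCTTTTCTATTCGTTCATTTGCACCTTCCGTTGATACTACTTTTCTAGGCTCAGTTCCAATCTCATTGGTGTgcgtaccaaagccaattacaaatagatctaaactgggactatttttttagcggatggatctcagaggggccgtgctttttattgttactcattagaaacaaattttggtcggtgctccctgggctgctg

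LAMA3 (plus strand, chr18:23872770-23873019) and LAMB3 (minus strand, chr1:209651375-209651624) code for 2 chains of the laminin that anchors epithelia. Here the capitals mark the letters TGACTCA, the binding sequence of AP-1, on either strand.
LAMA3: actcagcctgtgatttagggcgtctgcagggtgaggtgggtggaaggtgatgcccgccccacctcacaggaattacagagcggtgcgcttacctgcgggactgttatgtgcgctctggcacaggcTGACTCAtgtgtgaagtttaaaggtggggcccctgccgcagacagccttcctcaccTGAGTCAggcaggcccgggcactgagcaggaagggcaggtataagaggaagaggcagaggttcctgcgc
LAMB3: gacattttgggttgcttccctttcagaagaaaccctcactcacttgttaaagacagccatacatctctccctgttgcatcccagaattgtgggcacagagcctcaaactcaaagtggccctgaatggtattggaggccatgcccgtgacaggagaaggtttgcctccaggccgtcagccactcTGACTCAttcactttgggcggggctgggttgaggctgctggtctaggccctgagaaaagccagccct
The sites end 118 and 62 bases before the LAMA3 start and 60 bases before the LAMB3 start. This LAMA3 window lies inside the gene as the deposited table draws it (chr18:23689443-23956222), at a RefSeq start downstream of the start in that table. RefSeq lists 3 windows for LAMB3, and the one shown is the one with the letters. Of 35116 RefSeq windows without the bases after the start, 4.20% held these letters. LAMA3 and LAMB3 were the 2 of 35 matched genes that had them. The GC box GGGCGG, searched on both strands, was in 42.6% of all windows and in at least 1 window of 24 of the 35 genes. CCAAT was in 32.0% of windows and 10 of 35 genes, and TATAAA in 10.7% and 7 of 35. The percentages are per window and the counts per gene, where a gene can have several windows. For all 4 runs of letters the shares are therefore not on the same scale. A match is a run of letters and no shown binding site.

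Levels of the 50 genes were set side by side as normalized counts per kb of the canonical transcript, which spanned a 3440-fold range. The integrin subunits ITGB1 and ITGA3 stood highest, with 5358 and 4513 per kb over all libraries, followed by ITGB5 with 2082. ITGB1 is the beta subunit of most matrix receptors and ITGA3 an alpha subunit for laminin. The highest collagens were COL5A2 with 1635 and COL18A1 with 1379 per kb, and the highest laminin chain was LAMC1 with 1118. COL5A2 is a chain of the thin fibers that limit fiber width, COL18A1 the source of endostatin. COL1A1, the main chain of the collagen of bone and scar, had only 23.5 per kb and COL3A1 3.93. Of the 50 genes, 24 had at least 100 per kb and 10 had under 10. The median coefficient of variation over the 3 libraries of a group, across the 50 genes, was 11.6% in DMSO, 13.0% in Met, 11.3% in FK and 8.27% in Met+FK.

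**Figure D1:**
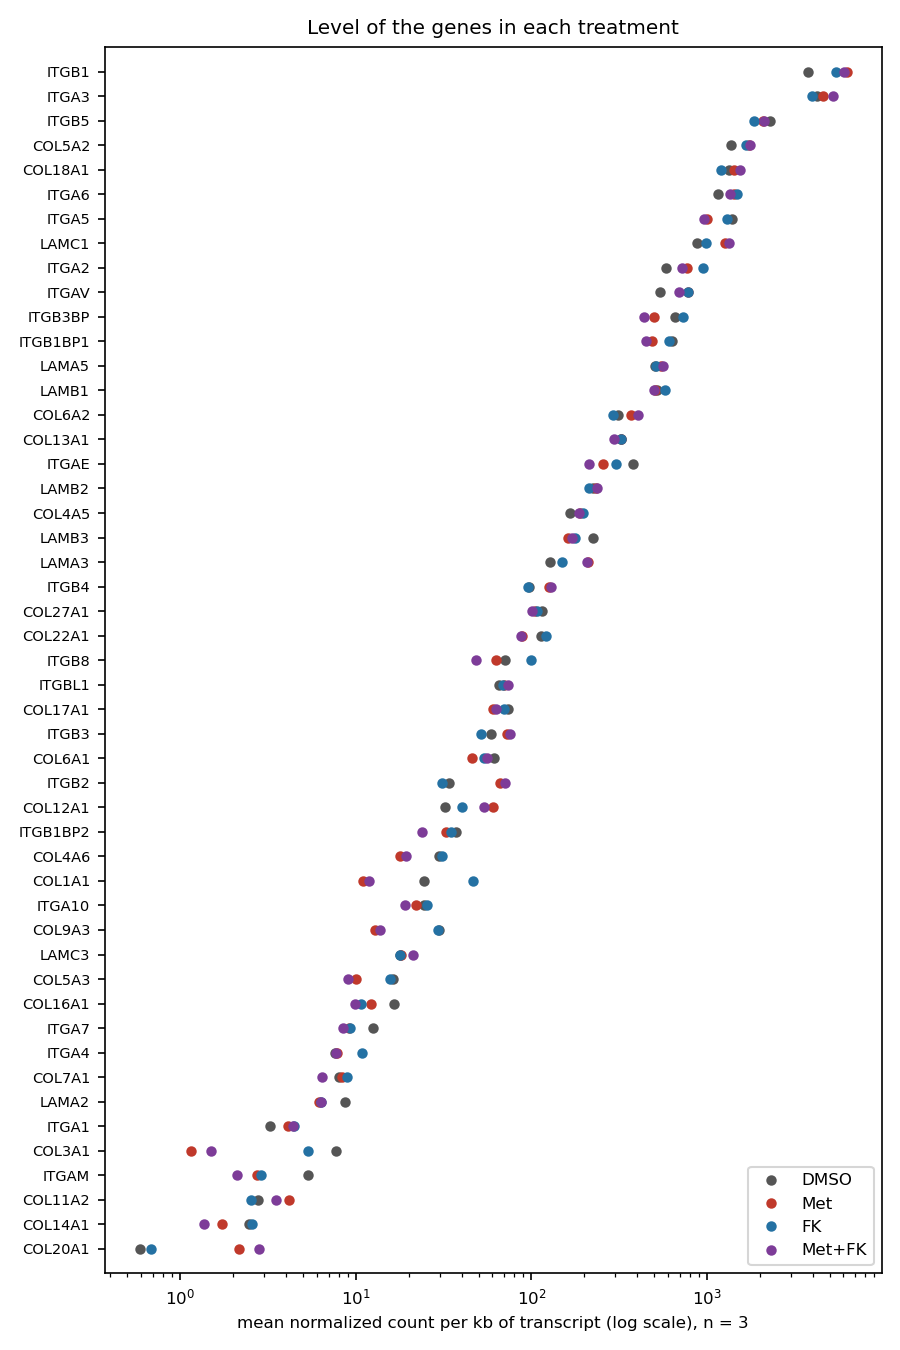
Mean normalized count per kb of transcript (log axis, n = 3 libraries per treatment) for the genes shown, ordered by their mean over all libraries, with 1 point per treatment. ITGB1 and ITGA3 stand at the top, and the widest spreads between treatments are at COL3A1, COL20A1 and COL1A1.

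Several genes whose products pair with a listed chain were hardly expressed. COL1A2, the usual partner of COL1A1, had a mean of 0.419 normalized counts over all libraries, and COL5A1, the partner of COL5A2, had 0.50. The most common type IV chains, COL4A1 and COL4A2, had 1.94 and 0.823, far below COL4A5 with 1208 and COL4A6 with 163. COL6A3, the third chain of type VI collagen, stood at 6.54, ITGB6 at 4.46, and COL8A1 and COL8A2 at 5.71 and 3.05. None of these 8 genes reached the mean of 10, so none was tested.

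Next to that threshold, the lowest genes inside were COL20A1 with a mean of 12.5 normalized counts, ITGAM with 15.4 and COL14A1 with 16.2. The highest outside were COL26A1 with 9.38, ITGB7 with 8.58 and COL9A2 with 7.55.

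A gene was called at an adjusted p under 0.05 and a fold change over 1.5 in limma-trend on log2(normalized count + 1), fitted over 15376 genes and all 12 libraries. Fold changes on this scale understate those of genes with low counts. With metformin alone, 5 of the 50 genes rose and 6 fell, together 22% of them, beside 23% of all tested genes. By direction this background was 12.8% higher and 10.2% lower. The median log2 fold change of the 50 was −0.016, beside 0.012 over all tested genes. COL20A1, ITGB2, COL12A1, ITGB1 and LAMA3 rose, and COL3A1, COL9A3, COL1A1, ITGAM, COL4A6 and COL5A3 fell. The collagens had 2 higher and 5 lower of 20, the laminins 1 higher of 9, and the integrin subunits 2 higher and 1 lower of 17. When libraries were scaled to the same total, the median of all genes moved from 0.012 to 0.13 and that of the 50 from −0.016 to 0.11, and the calls were 8 higher and 5 lower in place of 5 and 6, beside 25.1% of all genes called on that scale (18.4% higher, 6.67% lower).

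FK866 alone moved few of these genes. COL1A1 and ITGA2 rose and COL16A1 fell, which is 6% of the 50 beside 3.49% of all tested genes (2.73% higher, 0.754% lower). The median log2 fold change was −0.00020 over the 50 and −0.016 over all genes. When libraries were paired by their number, ITGAM also passed (log2 fold change −0.86, adjusted p = 0.0322), so that 2 genes fell in place of 1, beside 4.57% of all genes called in that paired fit (3.51% higher, 1.06% lower). These counts changed when single libraries were left out, a setting for which the share of all genes called was not computed. Without DMSO replicate 1 or without FK replicate 2, 0 of the 50 genes were called. Without DMSO replicate 2, 6 were higher and 2 lower, and without FK replicate 1, 5 were higher and 0 lower. Lacking that share, these counts are no result about the 50 genes in particular.

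Both drugs together gave 6 higher and 9 lower genes against DMSO, 30% of the 50 beside 25.1% of all genes (13.7% higher, 11.3% lower), with a median of −0.081 beside 0.014. Against FK alone, Met+FK gave 2 higher and 7 lower, 18% beside 18.6% (9.27% higher, 9.29% lower), with a median of −0.11 beside −0.011. Against Met alone, none of the 50 passed, beside 0.0585% of all genes (0.052% higher, 0.0065% lower), and edgeR and DESeq2 on the recovered read pairs also called 0. Only COL7A1 (−0.38) and ITGAE (−0.26) had an unadjusted p under 0.05 there, beside 1051 of all 15376 tested genes. The first comparisons share the DMSO libraries, and the last ones the Met+FK libraries, so their values are given side by side and not counted as separate evidence.

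Many shifts passed the adjusted p without reaching the fold threshold. By the adjusted p alone, with no fold threshold, 11 of the 50 genes were higher and 15 lower with metformin, beside 50.9% of all tested genes (24.9% higher, 25.9% lower). With FK866 these counts were 5 and 3, beside 21.1% (11.3% higher, 9.84% lower). Met+FK gave 12 and 16 against DMSO, beside 52.2% (26.1% higher, 26.1% lower), and 10 and 14 against FK, beside 42.1% (20.5% higher, 21.7% lower). Against Met the count was 0, beside 0.0976% (0.0911% higher, 0.0065% lower). With libraries paired by number, Met+FK had 6 higher and 10 lower genes against DMSO, beside 25.6% (14% higher, 11.6% lower). In that fit it had 2 higher and 8 lower against FK, beside 19.2% (9.61% higher, 9.57% lower), and 0 against Met, beside 0.163% (0.117% higher, 0.0455% lower). Metformin kept its 5 and 6 in the paired fit, beside 23.7% (13.2% higher, 10.5% lower). Libraries of compared groups often did not overlap. Between Met and DMSO this held for 50% of the 50 genes, beside 56.9% of all tested genes. For FK and DMSO it was 28% beside 38.8%, for Met+FK and DMSO 68% beside 60.9%, and for Met+FK and FK 46% beside 50.9%. For all libraries with metformin against all without it, no share was computed. A lack of overlap named below is therefore a description of that gene only.

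**Figure D2:**
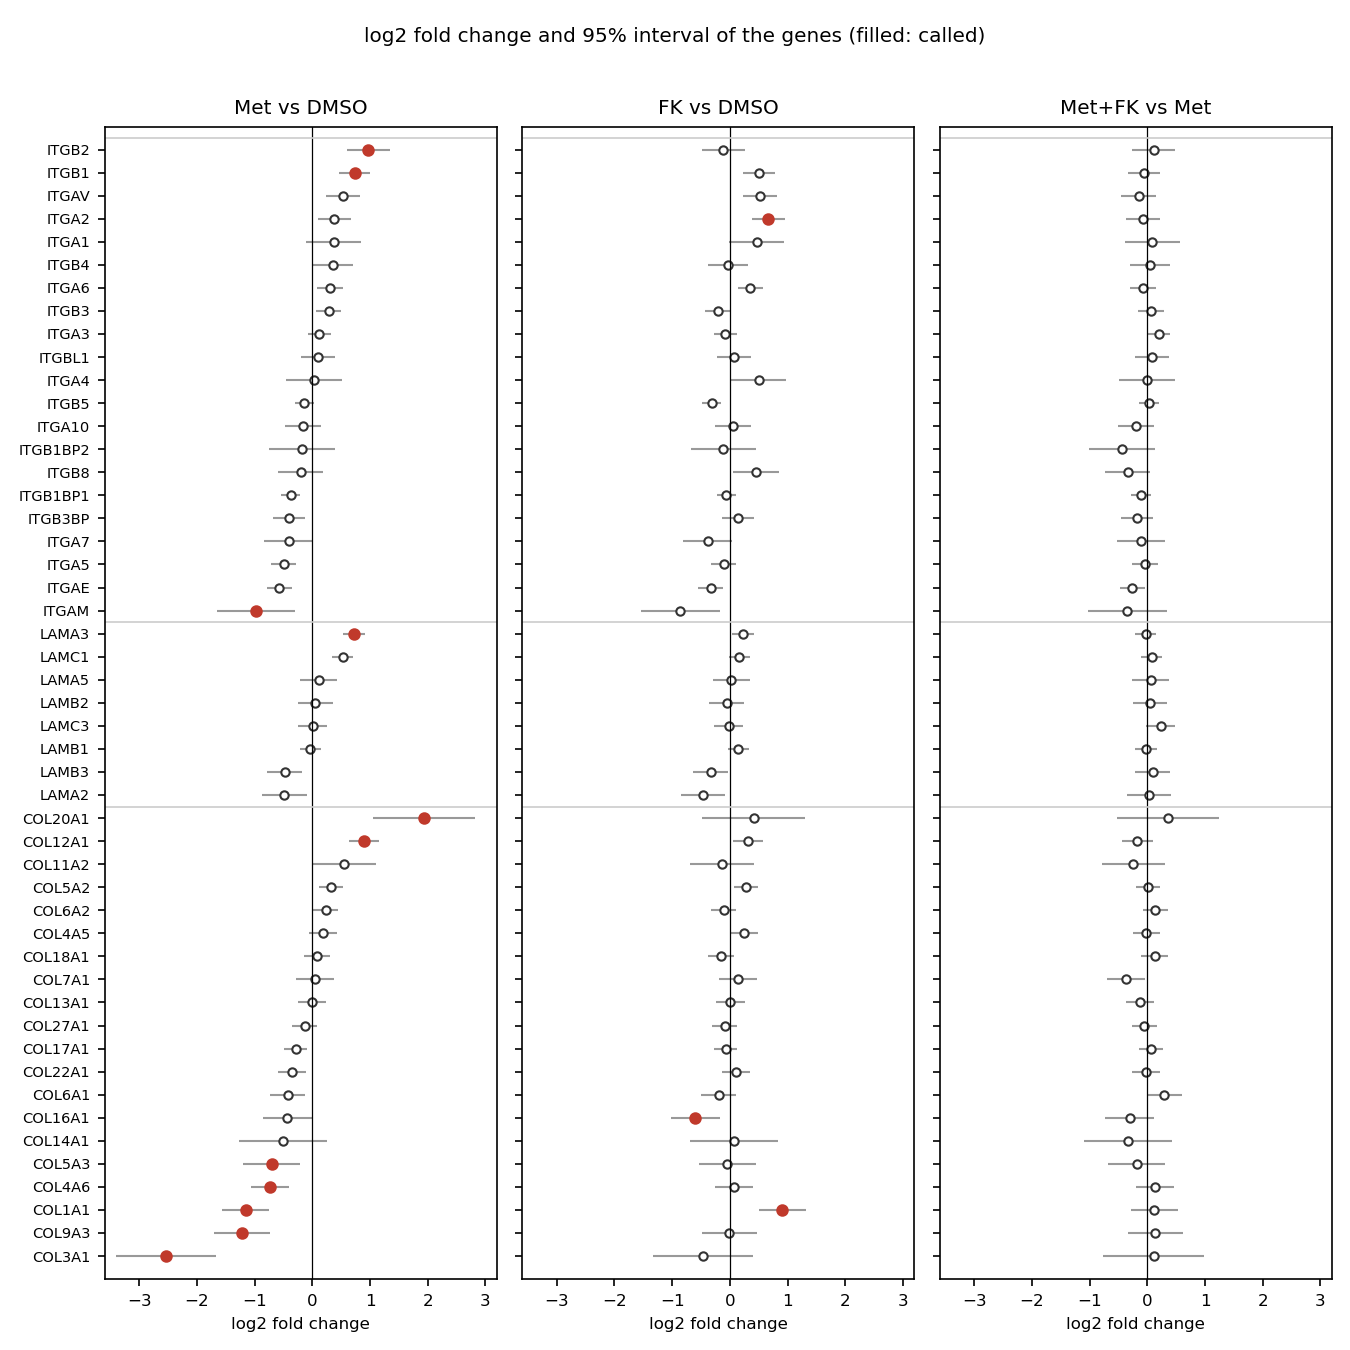
Log2 fold change (x axis, with its 95% interval) of the genes shown for metformin against DMSO, FK866 against DMSO and Met+FK against Met, grouped from the top as integrin names, laminins and collagens. Filled points are called genes, 11 for metformin, 3 for FK866 and 0 for FK866 added to metformin.

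Among the fibrillar collagens, COL1A1 (ENSG00000108821, chr17:50183289-50201632, minus strand) was the one gene of the 50 that rose with 1 drug and fell with the other. Its normalized counts were 133, 128 and 175 in DMSO, 63.8, 52.0 and 80.2 in Met, 228, 307 and 286 in FK and 57.5, 83.2 and 71.2 in Met+FK. All FK libraries stood above all DMSO libraries, and all libraries with metformin, with or without FK866, stood below all DMSO libraries. COL1A1 moved by 0.91 ± 0.19 (log2 fold change ± SE) with FK866 (adjusted p = 0.0153) and −1.15 ± 0.19 with metformin (adjusted p = 0.000181). Met+FK lay −1.03 from DMSO (adjusted p = 0.000398) and −1.94 from FK (adjusted p = 1.61e-06), and 0.12 from Met (95% interval −0.29 to 0.52). The rise with FK866 was not called without DMSO replicate 1 (0.86, adjusted p = 0.0814) or without FK replicate 2 (0.82, adjusted p = 0.0593). With the trend on GC content and length removed it was 1.08 (adjusted p = 0.000726).

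COL3A1 (ENSG00000168542, chr2:188974320-189012746, plus strand), the chain of the collagen of soft connective tissue, had the largest fall of the 50 with metformin. Its normalized counts were 43.9, 29.6 and 53.2 in DMSO, 27.4, 30.1 and 31.0 in FK, 5.23, 5.67 and 8.12 in Met and 3.14, 15.6 and 5.85 in Met+FK. The libraries with metformin lay below every library without it. Its log2 fold change was −2.54 ± 0.41 with metformin (adjusted p = 0.000133) and −1.97 ± 0.41 for Met+FK against FK (adjusted p = 0.00127). Its neighbour COL5A2, on the opposite strand 19151 bases away at chr2:189031898-189225312, was not lower. COL5A2, with the most counts of any collagen here, had 9911, 8400.4 and 9946 normalized counts in DMSO, 10277, 13116 and 11002 in FK, 12202, 11897 and 11317 in Met and 12353, 12893 and 10693 in Met+FK. Its Met libraries all lay above DMSO, with a log2 fold change of 0.33 ± 0.098 that passed the adjusted p (0.0115) but not the fold threshold.

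COL5A3, another chain of type V collagen, had 95.8, 87.7 and 119 normalized counts in DMSO, 97.2, 91.1 and 103 in FK, 53.3, 53.9 and 79.1 in Met and 35.5, 58.5 and 73.2 in Met+FK. The libraries with metformin lay below those without it, and the log2 fold change was −0.70 ± 0.23 (adjusted p = 0.0207), in Met+FK against FK −0.85. The metformin call ended without DMSO replicate 3 (−0.58, adjusted p = 0.0874), without Met replicate 1 (−0.61, adjusted p = 0.0794) and without Met replicate 2 (−0.61, adjusted p = 0.0755). It also ended, at −0.58, with libraries scaled to the same total. The Met+FK against FK call ended without Met+FK replicate 1 (−0.56). The remaining fibrillar genes, COL27A1 (−0.13) and COL11A2 (0.56), were not called with metformin, and COL5A2, COL27A1, COL3A1, COL5A3 and COL11A2 were not called with FK866.

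The head-to-head type IV genes parted with metformin. COL4A6 (ENSG00000197565, chrX:108155607-108439497) had 194, 166 and 235 normalized counts in DMSO, 96.2, 133 and 127 in Met, 189.7, 199 and 232 in FK and 122, 129 and 134 in Met+FK. No library with metformin reached the lowest library without it. COL4A5 (ENSG00000188153, chrX:108439844-108697545) had 1018, 1019 and 1225 in DMSO, 1154, 1233 and 1316 in Met, 1088, 1436 and 1353 in FK and 1131, 1307 and 1219 in Met+FK, and these ranges overlapped. Log2 fold changes with metformin were −0.73 ± 0.15 for COL4A6 (adjusted p = 0.00114) and 0.19 ± 0.11 for COL4A5 (adjusted p = 0.172). The log2 ratio of COL4A6 to COL4A5 was −2.39, −2.62 and −2.38 in the DMSO libraries and −3.58, −3.21 and −3.38 in the Met libraries, a difference of means of −0.93. With FK866 the ratio ranged from −2.85 to −2.52, overlapping DMSO, and with both drugs from −3.34 to −3.19. Between 3 libraries and 3, an exact permutation test of such a ratio cannot give a p under 0.10, so the ratios are given as values. The Met+FK against DMSO call of COL4A6 (−0.61) ended without DMSO replicate 3 (−0.48) and without Met+FK replicate 1 (−0.57). It also ended with a pseudocount of 10 (−0.58) and with libraries scaled to the same total (−0.53). The third gene of this group, COL7A1 of the anchoring fibrils, was not called in any comparison and had a log2 fold change of 0.051 with metformin.

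The FACIT collagens, which decorate fibers without forming any, moved in both directions. COL12A1, the FACIT collagen of dense connective tissue, had 375, 359.6 and 398 normalized counts in DMSO, 751, 697 and 667 in Met, 416, 523 and 475 in FK and 676, 708 and 510.2 in Met+FK. Every library with metformin except Met+FK replicate 3 lay above every library without it. COL12A1 rose by 0.90 ± 0.12 on the log2 scale with metformin (adjusted p = 3.38e-05) and by 0.73 in Met+FK against DMSO. With the GC and length trend removed the latter was 0.46 (adjusted p = 0.000904), under the fold threshold. COL9A3, a chain of a cartilage collagen, fell from 88.9, 66.0 and 67.5 to 20.9, 35.9 and 39.6 with metformin, a log2 fold change of −1.22 ± 0.22 (adjusted p = 0.000426). Its values were 64.2, 82.3 and 73.5 in FK and 31.4, 34.6 and 37.1 in Met+FK, again split by metformin without overlap, with −1.07 between the latter groups. COL9A3 shares 155 bases with TCFL5 on the other strand, whose log2 fold change with metformin was 0.0030.

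COL20A1, another FACIT collagen, was near the lower limit of the data. Its normalized counts were 2.31, 9.85 and 2.05 in DMSO and 4.72, 7.08 and 4.59 in FK, against 19.9, 15.1 and 17.2 in Met and 23.0, 23.1 and 21.5 in Met+FK. The libraries with metformin were all higher, and the log2 fold change was 1.94 ± 0.42 (adjusted p = 0.00137), with 1.88 for Met+FK against FK (adjusted p = 0.00208). COL16A1, a FACIT collagen of many tissues, had 104, 72.9 and 91.0 in DMSO, 55.7, 53.1 and 65.4 in FK, 66.9, 52.9 and 78.1 in Met and 44.9, 48.6 and 66.3 in Met+FK. DMSO and FK did not overlap, while DMSO and Met did. Its log2 fold change with FK866 was −0.60 ± 0.20 (adjusted p = 0.0458), and Met+FK lay −0.74 from DMSO (adjusted p = 0.00611). The FK866 call rested on nearly every library. Without DMSO replicates 1 or 3 it was −0.49 (adjusted p = 0.176) and −0.58 (0.113), and without FK replicates 1, 2 or 3 it was −0.58 (0.0670), −0.54 (0.171) and −0.69 (0.0536). It was −0.54 with a pseudocount of 10, −0.58 with libraries scaled to the same total and −0.42 with the GC and length trend removed, all under the fold threshold. With no filter its adjusted p was 0.0933, and with only the 6 libraries compared 0.0722. COL22A1, a collagen known from tissue junctions and the FACIT gene with the most counts, had 758, 629 and 786 in DMSO, 528, 521 and 651 in Met, 701, 822 and 806 in FK and 543, 568 and 556 in Met+FK. Its log2 fold change with metformin was −0.35 (adjusted p = 0.0154), under the fold threshold, and that of COL14A1 was −0.51.

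No other collagen was called in any comparison. COL18A1 had 7692, 6296 and 7798 normalized counts in DMSO, 7187, 6938 and 8963 in Met, 6272, 6065 and 7236 in FK and 7994, 8014 and 9061 in Met+FK, with overlap between DMSO and Met and a metformin log2 fold change of 0.081 (95% interval −0.15 to 0.31). It shares 20149 bases with SLC19A1 on the other strand, whose metformin log2 fold change was −0.93, and the strand setting of the counting is not given in the sources used here. COL13A1, which spans the plasma membrane, had 1017, 902 and 1153 in DMSO, 923, 957 and 1194 in Met, 972, 1051 and 1055 in FK and 829, 955 and 1013 in Met+FK. With metformin it moved by a log2 fold change of −0.00086 (95% interval −0.25 to 0.25), and COL17A1, the membrane collagen of hemidesmosomes, had −0.29 (adjusted p = 0.0209). COL6A1 and COL6A2 code for chains of the same beaded filament. COL6A1 had 262, 234 and 274 normalized counts in DMSO, 170.4, 180.5 and 225 in Met, 193, 253 and 232 in FK and 201, 245 and 259 in Met+FK. COL6A2 had 1108, 963 and 1165 in DMSO, 1186, 1164 and 1463 in Met, 969, 947 and 1085 in FK and 1332, 1389 and 1449.8 in Met+FK. COL6A1 had a log2 fold change of −0.42 ± 0.14 with metformin (adjusted p = 0.0223) and COL6A2 of 0.23 ± 0.10 (adjusted p = 0.0705). Their log2 ratio was −2.08, −2.04 and −2.09 in DMSO and −2.80, −2.69 and −2.7 in Met, without overlap.

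The summed normalized counts of the 20 collagens were 23304 ± 2309.7 (SD, n = 3) in DMSO, 26140.2 ± 1285 in Met, 24883 ± 1819 in FK and 26907 ± 703 in Met+FK. COL5A2 alone made up 44.1% of this sum. The collagen counts in DMSO and in FK differed by less than the spread between their libraries.

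Of the laminin chains, LAMA3, the alpha chain of the laminin of hemidesmosomes, was called with metformin. LAMA3 (ENSG00000053747) had 1386, 1267 and 1439 normalized counts in DMSO, 2216, 2268 and 2274 in Met, 1466, 1753 and 1574 in FK and 2311, 2315 and 1999 in Met+FK. Every library with metformin stood above every library without it. LAMA3 rose by 0.72 ± 0.088 on the log2 scale with metformin (adjusted p = 1.13e-05) and 0.69 in Met+FK against DMSO (adjusted p = 1.32e-05). With the trend on GC content and length removed these were 0.51 and 0.49, below the fold threshold with adjusted p-values of 2.31e-06 and 3.73e-06.

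LAMB3, a chain that joins LAMA3 in its trimer, was not called. LAMB3 (ENSG00000196878, chr1:209614870-209652425) had 885, 771 and 1049.6 normalized counts in DMSO, 589, 568 and 794 in Met, 664, 689 and 779 in FK and 614, 665 and 786 in Met+FK, with DMSO and Met overlapping. Its log2 fold change of −0.48 ± 0.14 passed the adjusted p (0.0114) and not the fold threshold. The log2 ratio of LAMA3 to LAMB3 was 0.65, 0.72 and 0.46 in DMSO, 1.14, 1.35 and 1.01 in FK, 1.91, 2.0 and 1.52 in Met and 1.91, 1.80 and 1.35 in Met+FK. The DMSO libraries were lowest, with no overlap with any other group, while the Met+FK and FK ranges met. LAMA3 and LAMB3 are the genes whose upstream windows shown above carry TGACTCA. The counts are per gene and not per transcript start, and the part of these letters in the values was not tested.

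LAMC1 is the gamma chain of most basement membrane laminins and made up 40.2% of all laminin counts. It had 7296, 6071 and 7589 normalized counts in DMSO, 10166, 9777 and 10234 in Met, 7345, 7967 and 8135 in FK and 10532, 11399 and 9836 in Met+FK. All libraries with metformin were higher than all without. Its log2 fold change with metformin was 0.53 ± 0.085 (adjusted p = 0.000136), below the fold threshold, and with both drugs 0.60 ± 0.085 (adjusted p = 3.79e-05), above it. That call ended without DMSO replicate 2 (0.51) and without Met+FK replicate 2 (0.55), and at 0.46 with the GC and length trend removed (adjusted p = 9.98e-07). Its usual partners are LAMB1 or LAMB2 and, in epithelia, LAMA5. LAMB1 had 3078, 2612 and 3143 normalized counts in DMSO, 2887, 2824 and 2907 in Met, 2940.1, 3552 and 3306 in FK and 2855, 2989 and 2667 in Met+FK, with each group overlapping DMSO. LAMB2 had 1361, 1016 and 1441 in DMSO, 1186, 1160.3 and 1620.2 in Met, 1151, 1136 and 1357 in FK and 1271, 1346 and 1432 in Met+FK. LAMA5 had 5989.5, 4634 and 6684 in DMSO, 5502, 5368 and 7971 in Met, 5578, 5278 and 6614 in FK and 5932, 6576 and 6798 in Met+FK. None of these 3 was called with metformin, at −0.031 (95% interval −0.22 to 0.16) for LAMB1, 0.054 (−0.25 to 0.35) for LAMB2 and 0.11 (−0.20 to 0.43) for LAMA5. The log2 ratio of LAMC1 to LAMB1 was 1.25, 1.22 and 1.27 in DMSO and 1.82, 1.79 and 1.82 in Met, without overlap. LAMA5 shares 908 bases with ADRM1 and LAMB1 7932 bases with DLD, both on the other strand. LAMC3 and LAMA2, the alpha chain of muscle laminin, had log2 fold changes of 0.012 and −0.48 with metformin and were not called. None of the 9 laminin chains was called with FK866.

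Among integrin beta subunits, ITGB1 and ITGB2 rose with metformin. ITGB1 (ENSG00000150093, chr10:32900318-33005792) had 13170.0, 15777 and 13177 normalized counts in DMSO, 24571, 25363 and 20167 in Met, 16924, 25106 and 18543 in FK and 22576, 24111 and 20649.9 in Met+FK. All DMSO libraries were below all others, and FK replicate 2 reached the Met libraries. ITGB1 rose by 0.73 ± 0.13 on the log2 scale with metformin (adjusted p = 0.000297), and its difference with FK866 was 0.51 ± 0.13 (adjusted p = 0.0242, below the fold threshold). In Met+FK against DMSO it rose by 0.68 (adjusted p = 0.000496). With the GC and length trend removed the metformin value was 0.47, that of FK866 0.20 and that of Met+FK 0.47. Both calls were lost by the fold threshold alone, with adjusted p-values of 1.41e-06 for metformin and 1.25e-06 for Met+FK.

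ITGB2, the beta subunit of leukocyte integrins, had 93.5, 72.9 and 119.7 normalized counts in DMSO, 75.5, 84.9 and 99.9 in FK, 214, 159.7 and 183 in Met and 202, 187 and 208 in Met+FK. Metformin separated the libraries without overlap. ITGB2 rose by 0.97 ± 0.17 on the log2 scale with metformin against DMSO (adjusted p = 0.000343), and 1.19 ± 0.17 for Met+FK against FK (adjusted p = 6.99e-05). The antisense gene ITGB2-AS1, which overlaps it by 8628 bases, had a mean of 15.5 normalized counts and a log2 fold change of −1.35 with metformin. The leukocyte markers PTPRC and CD68 had means of 196 and 829, and CD3E of 0.0845. Summed over 6 leukocyte markers, the level was 1115 to 1249.8 in DMSO, 927 to 987 in Met, 959.6 to 1042 in FK and 959 to 1011 in Met+FK, lower in Met than in DMSO while ITGB2 was higher. ITGAM, the alpha subunit that pairs with ITGB2 on myeloid cells, went the other way. It had 27.7, 23.6 and 24.6 in DMSO, 8.36, 12.3 and 18.3 in Met, 13.2, 11.5 and 16.1 in FK and 6.27, 10.7 and 12.7 in Met+FK, highest in all DMSO libraries. The log2 fold change of ITGAM was −0.97 ± 0.32 with metformin (adjusted p = 0.0194) and −1.32 with both drugs (adjusted p = 0.00295). The metformin call ended without DMSO replicate 1 (−0.91, adjusted p = 0.0619) and without Met replicate 1 (−0.71, adjusted p = 0.0973).

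ITGB8, which pairs with ITGAV and releases TGF-beta from its latent form, was called for Met+FK against FK alone. It had 559.7, 708 and 648 normalized counts in DMSO, 462, 712 and 510.3 in Met, 679.6, 1194 and 821 in FK and 394, 472 and 441 in Met+FK. The Met+FK libraries were lower than every FK and DMSO library, and FK replicate 2 stood well above the other FK libraries. Met+FK lay −1.01 ± 0.19 from FK on the log2 scale (adjusted p = 0.000527), and −0.55 from DMSO (adjusted p = 0.0222), under the fold threshold. ITGB5 and ITGB3, partners of ITGAV, and ITGB4, the beta subunit of hemidesmosomes, were not called in any comparison. ITGB5 had 10772, 9593 and 10123 normalized counts in DMSO, 9349, 8564 and 9781 in Met, 8667, 7352 and 8579 in FK and 9393, 9131 and 9645 in Met+FK. ITGB3 had 347, 339 and 369 in DMSO, 449, 376 and 468 in Met, 292, 292 and 332 in FK and 466, 437 and 444 in Met+FK, with the metformin groups above the others. ITGB4 had 548, 518 and 657 in DMSO, 605, 726 and 888 in Met, 482, 553 and 661 in FK and 616, 795 and 884 in Met+FK. With metformin their log2 fold changes were −0.14, 0.29 and 0.35.

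Of 11 integrin alpha subunits, ITGA2 rose with FK866. ITGA2 (ENSG00000164171, chr5:52989340-53094779, plus strand), the alpha subunit of the main collagen receptor, had 4100.3, 5119 and 4618 normalized counts in DMSO, 5673, 8947 and 7662 in FK, 5741, 6705 and 5567 in Met and 5250.5, 6136 and 5649.8 in Met+FK. The DMSO libraries were below all others. ITGA2 rose by 0.67 ± 0.14 on the log2 scale with FK866 (adjusted p = 0.0136), and its metformin value was 0.38 (adjusted p = 0.029, under the fold threshold). Without DMSO replicate 1 the FK866 effect was 0.59 (adjusted p = 0.0816), without FK replicate 2 it was 0.52 (adjusted p = 0.0425, under the fold threshold), and with only the 6 libraries compared 0.67 (adjusted p = 0.0565). With the GC and length trend removed it was 0.31 (adjusted p = 0.0155, under the fold threshold).

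The other abundant alpha subunits differed in direction with metformin and stayed under the fold threshold. ITGA5, the fibronectin receptor's alpha subunit, had 6126, 5572 and 6137 normalized counts in DMSO, 3776, 4099.9 and 4836 in Met, 5216, 5264 and 6105 in FK and 3682, 4023 and 4614 in Met+FK, and a metformin log2 fold change of −0.49 ± 0.10 (adjusted p = 0.00109). ITGAV, the alpha subunit of receptors for vitronectin, had 3530.2, 4279 and 3549 in DMSO, 5442, 6192 and 4813 in Met, 4392, 7105 and 5086 in FK and 4832, 5019 and 4859.5 in Met+FK, and a metformin log2 fold change of 0.53 ± 0.14 (adjusted p = 0.00562). The Met and DMSO ranges of ITGA5 and of ITGAV did not overlap. ITGA6, an alpha subunit for laminin, had 5878, 6989 and 7229 in DMSO, 8337, 8702 and 7781 in Met, 7173, 9737 and 8947 in FK and 7527, 8313 and 7646 in Met+FK. ITGA3, also for laminin, had 21208, 18506 and 22126 in DMSO, 21463, 20368 and 25621 in Met, 19528, 17869.8 and 21032 in FK and 25071, 24514 and 27440.1 in Met+FK. With metformin ITGA6 stood at 0.31 (adjusted p = 0.0235) and ITGA3 at 0.12 (95% interval −0.079 to 0.32). With the GC and length trend removed, the metformin values were 0.18 for ITGAV (adjusted p = 0.00659), −0.37 for ITGA5, 0.066 for ITGA6 (adjusted p = 0.413) and 0.048 for ITGA2 (adjusted p = 0.604). ITGA1, ITGA4, ITGA7 and ITGA10 were not called in any comparison, with log2 fold changes between −0.41 and 0.37 with metformin.

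ITGAE, the alpha subunit of a receptor for E-cadherin, fell in Met+FK. Its normalized counts were 1681, 1404 and 1271 in DMSO, 984, 1008 and 921 in Met, 1269, 1042 and 1141 in FK and 808, 813 and 809 in Met+FK, lowest in all Met+FK libraries. ITGAE stood at −0.83 ± 0.10 on the log2 scale in Met+FK against DMSO (adjusted p = 1.07e-05) and −0.57 in Met against DMSO (adjusted p = 0.000348, under the fold threshold). The gene HASPIN lies inside ITGAE on the other strand, with a mean of 1468 normalized counts, beside 1096 for ITGAE, and a log2 fold change of −0.95 with metformin. Its part in the ITGAE values was not tested.

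The summed counts of the 17 integrin subunits were 69260.0 ± 1025 (SD, n = 3) in DMSO, 82229 ± 869 in Met, 78279 ± 7165 in FK and 82927 ± 1659 in Met+FK, and those of the 9 laminins 19508 ± 2595, 23679 ± 2069, 20682 ± 1319 and 24386 ± 1019. From DMSO to Met, the sum of the beta subunits, 64.4% of it ITGB1, went from 25864 to 34516. That of the alpha subunits went from 43396 to 47713. The laminin gamma chains, 97.9% LAMC1, went from 7172 to 10240, the alpha chains from 7218 to 8593 and the beta chains from 5119 to 4845. No sum was computed with the GC and length trend removed. Met was above DMSO by 0.25 on the log2 scale for the integrins, with a pooled SD of 0.019, and by 0.28 for the laminins, with a pooled SD of 0.17. Over the other scalings, counts per kb and each library left out, these differences stayed between 0.24 and 0.37 and between 0.18 and 0.40. The FK against DMSO difference of the laminins ran from −0.019 to 0.17 over the same settings. It was negative with a DMSO library left out.

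The symbol rule also took 4 genes that are no integrin subunits. ITGB1BP1 binds the cytoplasmic tail of ITGB1, ITGB3BP is known as a protein of the centromere, ITGB1BP2 is a muscle protein, and ITGBL1 is secreted. ITGB3BP had 595, 679.8 and 634 normalized counts in DMSO, 602, 845 and 668 in FK, 487, 537 and 420.0 in Met and 372, 439.8 and 456 in Met+FK, so that metformin separated the libraries. It stood at a log2 fold change of −0.73 ± 0.13 in Met+FK against FK (adjusted p = 0.000417) and −0.59 against DMSO (adjusted p = 0.0015). The first call ended at −0.55 with the GC and length trend removed, and the second without DMSO replicate 2 (−0.54), without Met+FK replicate 1 (−0.50), in edgeR (−0.56), with a pseudocount of 10 (−0.58) and with libraries scaled to the same total (−0.51). ITGB3BP overlaps EFCAB7 by 49322 bases on the other strand, and EFCAB7 had a log2 fold change of 0.50 with metformin. ITGB1BP1 (−0.37, adjusted p = 0.00111), ITGBL1 (0.097) and ITGB1BP2 (−0.17) were not called with metformin.

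**Figure D3:**
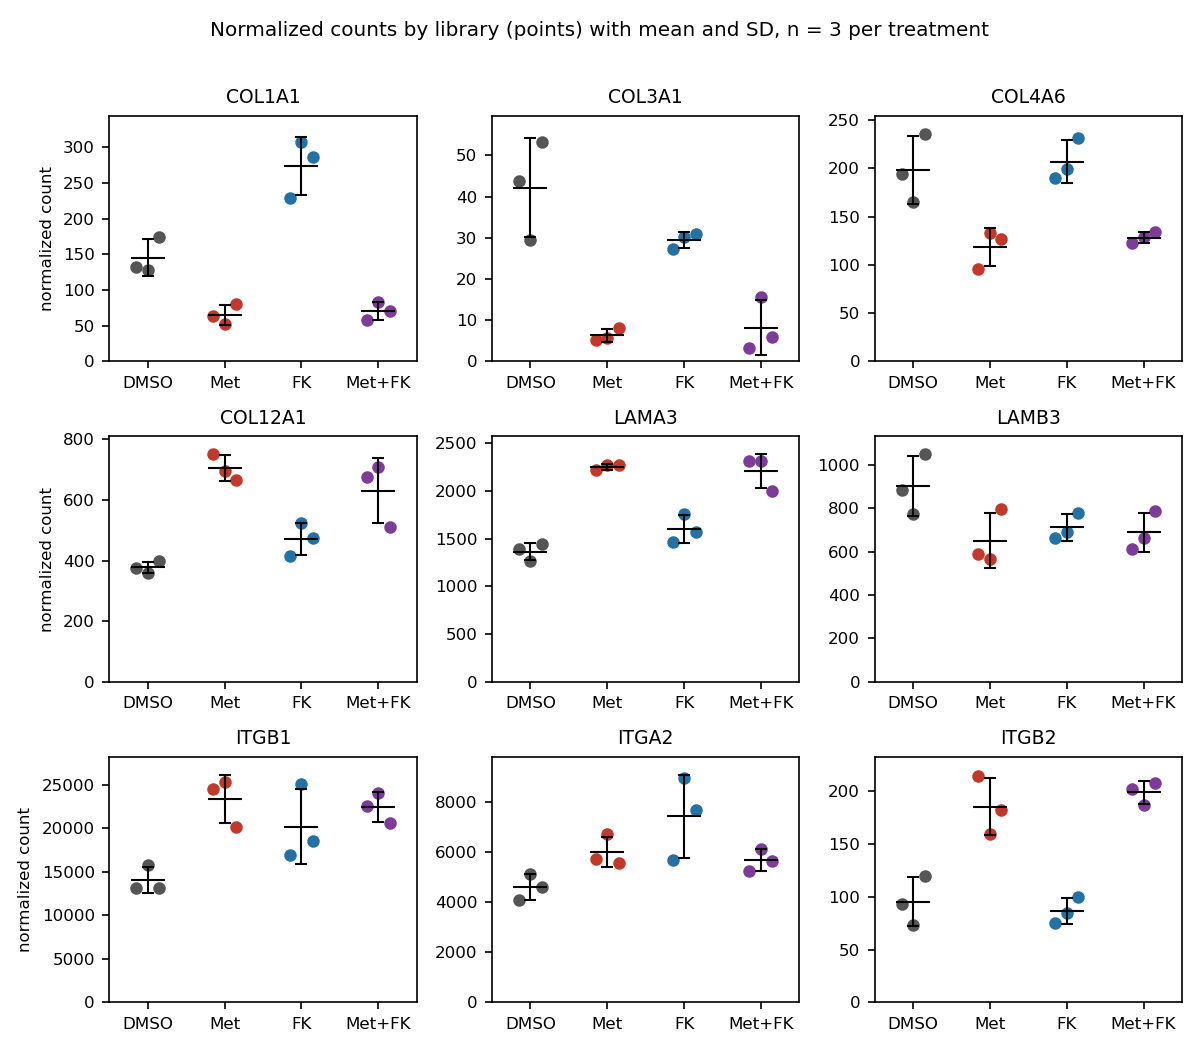
Normalized count (y axis from 0) in each of the 12 libraries for 9 genes, with points for libraries and bars for the mean and SD of 3 libraries per treatment. COL3A1, COL4A6, LAMA3 and ITGB2 split by metformin without overlap, COL1A1 is highest in FK, and LAMB3 overlaps between DMSO and Met.

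Integrin pairs were also read as ratios. The log2 ratio of ITGB1 to ITGA5 was 1.1, 1.5 and 1.1 in DMSO, 1.70, 2.25 and 1.60 in FK and 2.7, 2.63 and 2.06 in Met, with no overlap between DMSO and either drug. ITGB1 to ITGA2 was 1.68, 1.62 and 1.51 in DMSO and 2.10, 1.92 and 1.86 in Met, again without overlap, while with FK866 it was 1.58, 1.49 and 1.28 and overlapped DMSO. ITGAV to ITGB5 ranged from −1.61 to −1.16 in DMSO and from −1.02 to −0.47 in Met. In FK it ranged from −0.98 to −0.049, also without overlap with DMSO. The pair of the hemidesmosome, ITGB4 to ITGA6, ranged from −3.75 to −3.42 in DMSO and from −3.78 to −3.13 in Met, which overlapped, and from −4.14 to −3.76 in FK, which did not overlap DMSO. For 3 further pairs DMSO and Met overlapped. These were ITGB1 to ITGA3 (−0.75 to −0.23 in DMSO and −0.35 to 0.32 in Met), ITGAV to ITGB3 (3.26 to 3.66 and 3.36 to 4.04) and, among the laminins, LAMC1 to LAMA5 (0.18 to 0.39 and 0.36 to 0.89). In FK, ITGB1 to ITGA3 (−0.21 to 0.49) and ITGAV to ITGB3 (3.91 to 4.61) did not overlap DMSO, while LAMC1 to LAMA5 (0.30 to 0.59) did. The GC contents of such partners differ, at 39.5% for ITGB1, 58.0% for ITGA5, 38.3% for ITGAV and 54.6% for ITGB5. With the GC and length trend removed, the metformin log2 fold change of ITGB1 minus that of ITGA5 was 0.84 in place of 1.23, and that of ITGAV minus that of ITGB5 was 0.24 in place of 0.67. ITGB1 minus ITGA2 was 0.42 in place of 0.35, and ITGB4 minus ITGA6 was 0.41 in place of 0.045. ITGB1 minus ITGA3 was 0.22 in place of 0.61, and ITGAV minus ITGB3 was −0.053 in place of 0.25. With FK866, ITGB1 minus ITGA5 was 0.15 in place of 0.62, and ITGB4 minus ITGA6 was 0.043 in place of −0.38. ITGB1 minus ITGA3 was 0.10 in place of 0.59 with FK866, ITGAV minus ITGB3 0.34 in place of 0.73 and ITGAV minus ITGB5 0.32 in place of 0.83. Outside the integrins, the metformin difference was −0.84 in place of −0.92 for COL4A6 minus COL4A5, −0.67 in place of −0.66 for COL6A1 minus COL6A2, 0.85 in place of 1.2 for LAMA3 minus LAMB3 and 0.49 in place of 0.56 for LAMC1 minus LAMB1.

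**Figure D4:**
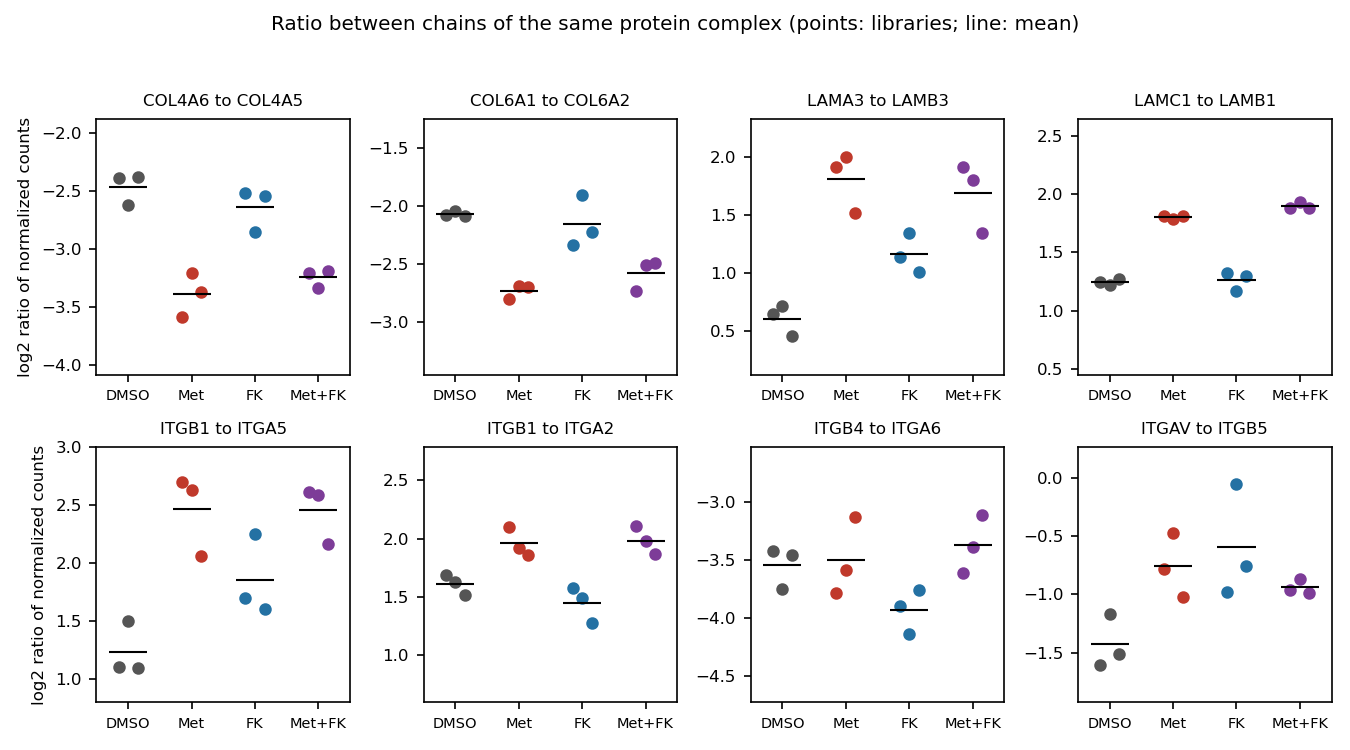
Log2 ratio of normalized counts (y axis, the same span in each panel) between 8 pairs of genes whose products share a complex, by library, with a line at the mean of 3 libraries. COL4A6 to COL4A5 and COL6A1 to COL6A2 are lower with metformin, LAMA3 to LAMB3, LAMC1 to LAMB1 and ITGB1 to ITGA5 are higher, and ITGB4 to ITGA6 overlaps between DMSO and Met.

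GC content moved with the effect of FK866. Across the 50 genes, which share the same 6 libraries and are not independent, Spearman's rho between GC content and the log2 fold change of FK against DMSO was −0.45, beside −0.67 over 15324 genes. For Met against DMSO it was −0.16, beside −0.34. The 50 genes had a median GC content of 54.6% beside 48.5% over all tested genes. The slope of a library's values on GC content, per 10 percentage points, ran from 0.043 to 0.20 in DMSO, from −0.25 to 0.0027 in FK, from −0.14 to 0.080 in Met and from −0.048 to 0.063 in Met+FK. Replicate 2 had the lowest slope in every group. In FK it stood at −0.25, while replicates 1 and 3 stood at 0.0027 and −0.025. When each library's trend on GC content and on length of the transcript was removed, rho for FK866 was 0.13. COL1A1 rose still, ITGA2 and COL16A1 were no longer called, and LAMA2 fell (−0.67, adjusted p = 0.0321), beside 1.06% higher and 0.235% lower of all genes. COL1A1 has a GC content of 61.5%, ITGA2 of 40.1%. Under the same correction metformin had 4 higher and 8 lower genes, beside 20% of all genes (9.99% higher, 10% lower). ITGB1 and LAMA3 were lost by the fold threshold alone, and COL11A2, ITGB1BP1 and LAMA2 were gained.

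**Figure D5:**
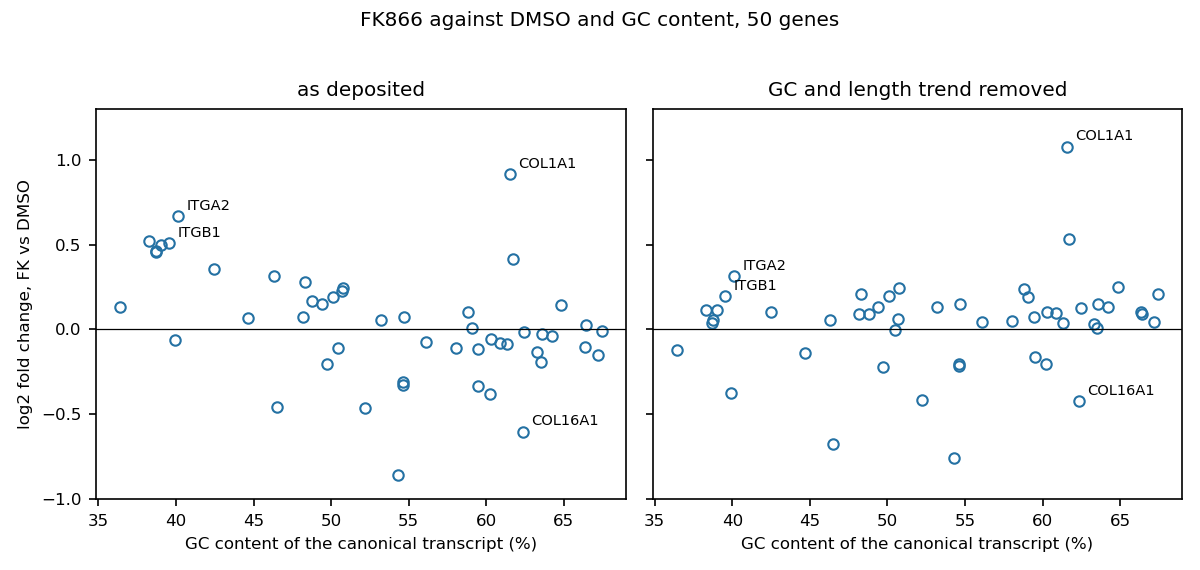
Log2 fold change of FK866 against DMSO (y axis) against GC content of the canonical transcript in percent (x axis) for the 50 genes, as deposited on the left and with the GC and length trend removed on the right. The downward slope on the left (rho −0.45) is absent on the right (rho 0.13), where COL1A1 remains the highest point.

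Whether metformin altered the response to FK866 was tested as an interaction, the difference of Met+FK and Met minus the difference of FK and DMSO. None of the 50 genes had an adjusted p under 0.05, beside 0.0585% of all genes (0.0065% higher, 0.052% lower), and edgeR gave 0. An unadjusted p under 0.05 was found for 10 of the 50, beside 4695 of all 15376 tested genes. The smallest p belonged to ITGA2 (−0.75 ± 0.19, adjusted p = 0.109), ITGAV (−0.68 ± 0.20, adjusted p = 0.11) and ITGB1 (−0.56 ± 0.18, adjusted p = 0.111). COL1A1 had −0.79 ± 0.27 (adjusted p = 0.111). FK lay above DMSO for all 4, while Met+FK against Met was −0.079 for ITGA2, −0.15 for ITGAV, −0.054 for ITGB1 and 0.12 for COL1A1. Across the 50 genes, Spearman's rho between GC content and the interaction value was 0.49, beside 0.69 over 15324 genes. With the GC and length trend removed it was −0.047 across the 50. The outcome depended on the fit. Paired by number, 7 genes were lower (COL12A1, COL1A1, ITGA2, ITGA6, ITGAV, ITGB1 and ITGB8) and 5 higher, beside 32% of all genes (15.5% higher, 16.5% lower). The same 7 and ITGB5 passed without FK replicate 1, where the share of all genes was not computed. DESeq2 called 4 (ITGA2, ITGAV, ITGB1 and ITGB8), beside 10.2% of the 8520 genes it gave an adjusted p. With the GC and length trend removed and no pairing, 0 of the 50 passed, beside 0.6% of all genes. With that trend removed and libraries paired by number, 4 were lower (COL13A1, COL1A1, COL4A5 and ITGA2), beside 6.97%. There COL1A1 stood at −1.01 (adjusted p = 0.0101) and ITGA2 at −0.34 (adjusted p = 0.00632).

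Genes that process collagen were read from a list of 34, of which 33 were tested. With metformin 4 rose and 4 fell, 8 of 33 beside 23% of all tested genes (12.8% higher, 10.2% lower), with a list median of −0.072 beside 0.012 over all genes. MIA2 (1.61) and MIA3 (0.61), which help export large cargo such as procollagen from the endoplasmic reticulum, LOX (1.21), which cross-links fibers, and COLGALT2 (1.16) rose. P3H3 (−0.90), COLGALT1 (−0.78), which adds galactose to collagen, PCOLCE (−0.75), which aids removal of the propeptide, and PPIB (−0.66), a prolyl isomerase, fell. The prolyl and lysyl hydroxylases P4HA1, P4HA2, PLOD1 and PLOD2 had 0.36, 0.29, −0.56 and 0.53 and were not called. With FK866, LOX rose (0.71, adjusted p = 0.0378) and LOXL1 fell (−0.62, adjusted p = 0.0196), beside 3.49% of all genes called.

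Among 15 tested partners of the basement membrane and other matrix receptors, 1 rose and 4 fell with metformin, beside 12.8% higher and 10.2% lower of all tested genes, and the list median was −0.33. DDR2, a collagen receptor kinase, rose (1.04), and PXDN (−1.66), the peroxidase that cross-links type IV collagen, SDC1 (−0.91), CD151 (−0.68), a partner of laminin-binding integrins, and CD44 (−0.66) fell. Of 24 tested proteins on the cytoplasmic side of integrins, 1 rose and 2 fell with metformin, against that same background, with a list median of −0.071. Those that fell were ACTN4 (−0.66), which cross-links actin, and TNS1 (−0.70), a tensin. The vinculin gene VCL had −0.57, and the talin gene TLN1 0.19.

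Of 12 tested matrix ligands outside the collagens and laminins, TNXB (1.93) and EDIL3 (0.70) rose and TGFBI (−2.14) and THBS1 (−0.71) fell with metformin, beside 12.8% higher and 10.2% lower of all tested genes, with a list median of −0.049. THBS1, thrombospondin of the matrix, had means of 8385 normalized counts in DMSO, 5088 in Met, 14553 in FK and 5793 in Met+FK. It thus rose with FK866 (0.80, adjusted p = 0.000134) and fell with metformin, as COL1A1 did. EDIL3 also rose and TGFBI also fell with FK866, so that 2 of the 12 were higher and 1 lower, beside 2.73% and 0.754% of all genes. Of 15 tested metalloproteinases and inhibitors, ADAM17 rose (1.1) and MMP9 (−0.85), MMP10 (−0.71) and MMP17 (−0.65) fell with metformin, 1 higher and 3 lower against the metformin background above, with a list median of −0.17, and MMP16 rose with FK866 (0.75). MMP14, the membrane-bound collagenase, had 0.47 with metformin, under the fold threshold, and rose by 0.73 with both drugs. No gene of these lists was called for Met+FK against Met.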

How the data were processed

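RNA of 12 KP4 libraries, 3 per treatment, was sequenced as read pairs after ribosomal depletion. For the authors' table, adapters were removed by cutadapt, hg38 alignment was by STAR, featureCounts took pairs with both ends mapped, and DESeq2 normalized them. The annotation and strand setting are not given in the sources used here. The deposited values are a signal, gene counts divided by a size factor per library (0.867 to 1.21). In every library 100% of values were whole multiples of 1 read pair within 0.01, so read pairs were recovered, and on them edgeR called 3524 genes between Met and DMSO, 616 between FK and DMSO and 9 between Met+FK and Met. All columns mapped to a labelled sample. Sampling noise alone would give a chi-square per degree of freedom near 1 between replicate libraries, and it was 5.69 to 51.4.

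Treatments were compared by limma-trend (limma 3.58.1, R 4.3.3) on log2(normalized count + 1) with a mean per treatment, for the 15376 genes averaging 10 or more, Benjamini-Hochberg adjusted. The fit was tested on simulated data. Alternatives were pseudocounts of 0.1 and 10, no filter, TMM scaling (edgeR 4.0.16), equal totals, only the libraries compared, the replicate block, edgeR, DESeq2 1.42.0, a loess trend (span 0.3) on GC content and transcript length, the adjusted p alone, and each library left out. Lengths and GC content come from GENCODE 44, where 83.6% of the genes found had the same start and end as in the deposited table. Positions and overlaps are those of the deposited table, counted from 1.

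Libraries with the same number deviated together from their groups, with correlations of 0.25, 0.42 and 0.22 for DMSO and FK and of 0.17, 0.20 and 0.23 for Met and Met+FK, so these were read as paired. The main fit still used no pairing, and the replicate block was run as an alternative. For DMSO and Met the correlations were 0.013, 0.33 and 0.25, and for DMSO and Met+FK 0.051, 0.16 and 0.019. For FK and Met+FK they were 0.046, 0.24 and 0.14, and for Met and FK 0.023, 0.40 and 0.30. In these pairs of groups all were positive but not all over 0.1.

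The members and lists were chosen with earlier results of these data known. Genes were named if called with metformin (largest and smallest 8 with a mean of at least 100) or FK866, highest in their family, partners in a complex, among the 3 smallest interaction p-values, or next to the threshold. COL3A1, COL9A3, COL5A3, ITGAE, ITGB3BP and ITGB8 were added after their values were seen, since they were called, as were members given as 1 value and genes of the lists that were named without a call. Some results are not reported here.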

Additional observations from a re-analysis of the deposited data

How the results depend on the processing

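Under the alternatives run, no called fold change of the 50 genes changed sign. Counts of members called that moved by over 1.5 times were the following. Between Met and DMSO, 8 were higher with libraries scaled to the same total, beside 18.4% of all genes. By the adjusted p alone 11 were higher and 15 lower, beside 24.9% and 25.9%. Between FK and DMSO, 1 was higher with only the 6 libraries compared. With the GC and length trend removed 1 was higher too, beside 1.06% of all genes, or 1.27% with the replicate block. By the adjusted p alone 5 were higher and 3 lower, beside 11.3% and 9.84%. In that comparison, 0 were lower with a pseudocount of 10, with no filter and with only the 6 libraries compared. With the same total 0 were lower as well, beside 0.618% of all genes. With the replicate block and in edgeR 2 were lower, beside 1.06% and 0.585%. With each library left out, 0 to 6 were higher and 0 to 2 lower, with 0 called in either direction without DMSO replicate 1 and without FK replicate 2. Shares over all genes were not computed for the left-out libraries, the pseudocounts, no filter or only the libraries compared. Counts under those settings are therefore no result about the 50 genes in particular. Between Met+FK and DMSO, 2 were higher with the GC and length trend removed, beside 11.5% of all genes. With the block added these were again 2, beside 11.7%. By the adjusted p alone 12 were higher and 16 lower, beside 26.1% and 26.1%. Between Met+FK and FK, the adjusted p alone gave 10 higher and 14 lower, beside 20.5% and 21.7%. For the interaction, the replicate block gave 5 higher and 7 lower, beside 15.5% and 16.5% of all genes. DESeq2 gave 0 and 4, beside 4.13% and 6.1% of the genes it gave an adjusted p. The GC and length trend removed with the block gave 0 and 4, beside 4.81% and 2.16%. Leaving out libraries gave 0 to 1 higher and 0 to 7 lower, the highest without FK replicate 1. The cause of these shifts was not tested. The block moved no other count by over 1.5 times, though it added ITGB1BP2 to the lower genes of Met+FK against DMSO and COL14A1 to those of Met+FK against FK. Depth limits most the genes next to the threshold, COL20A1, ITGAM and COL14A1, with means of 12.5, 15.4 and 16.2 normalized counts.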
